A study of Mus musculus with 6 samples.

Results

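The genes described here are 54 components of transforming growth factor beta (TGF-β) and bone morphogenetic protein (BMP) signalling, of 18099 genes in the deposited table of injured mouse Achilles tendon. They were listed by name and role, with earlier results of these data known. The list covers ligands, the proteins that hold them in the matrix, receptors, secreted antagonists, Smad proteins and 4 response or repressor genes. All 54 names were found in the table, and 52 had enough reads for a test. Bulk RNA was sequenced from the transected tendons of 6 neonatal mice, 3 *LysM-Cre; Ampkα1 fl/fl* mice and 3 littermate controls that carried the floxed *Ampkα1* alleles without Cre (*Ampkα1 fl/fl*). Every tendon of both groups had been cut, and the study's text places collection a week after the injury. The Cre is expressed from the *Lyz2* (lysozyme M) locus, which is active across myeloid cells and not in macrophages alone, whereas the RNA came from the whole tissue. AMPKα1, which this Cre deletes in myeloid cells, is the catalytic subunit of a kinase that senses cellular energy. The comparison asks how transcripts of this pathway in the repair tissue differ between mice with the Cre and the deletion and controls without Cre. In such tissue, fewer cells of a type and less RNA per cell cannot be told apart.

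TGF-β ligands are secreted in a latent form, bound to their own propeptide and, through it, to latent TGF-β binding proteins (LTBPs) that anchor them in the extracellular matrix. Once released, a ligand brings a type II and a type I receptor kinase together. Receptors for TGF-β and activin phosphorylate Smad2 and Smad3, receptors for BMPs and many growth and differentiation factors (GDFs) phosphorylate Smad1, Smad5 and Smad9, and both sets enter the nucleus with Smad4. Smad6 and Smad7 inhibit the pathway, and noggin, chordin, gremlin and the follistatins trap ligands outside the cell. In tendon, TGF-β signalling is known for its part in the formation and upkeep of tendon progenitors and in matrix production and scarring after injury, whereas several BMPs and GDFs are known for bone, cartilage and joint formation.

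The windows before the transcription start of 4 members are shown with motifs of the kind that the Smad proteins of the pathway bind. *Gdf10* had the largest fold difference among members with more than 100 reads in every library. *Tgfbi* is named for its induction by TGF-β, and *Id2* and *Id3* are classic BMP target genes. Each is the 250 bases before the start in RefSeq (GRCm38.p6), written 5′ to 3′ on the strand of the gene. Capitals mark CAGAC, the short box that Smad3 and Smad4 bind, and GGCGCC, a GC-rich element of the kind bound in BMP target genes, each searched on both strands.
Gdf10 (chr14:33923337-33923586, plus strand): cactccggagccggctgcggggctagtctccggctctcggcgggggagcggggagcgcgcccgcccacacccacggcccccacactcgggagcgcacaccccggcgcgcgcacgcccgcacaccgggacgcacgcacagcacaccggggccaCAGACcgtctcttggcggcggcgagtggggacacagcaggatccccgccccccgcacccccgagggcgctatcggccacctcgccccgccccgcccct
Tgfbi (chr13:56609336-56609585, plus strand): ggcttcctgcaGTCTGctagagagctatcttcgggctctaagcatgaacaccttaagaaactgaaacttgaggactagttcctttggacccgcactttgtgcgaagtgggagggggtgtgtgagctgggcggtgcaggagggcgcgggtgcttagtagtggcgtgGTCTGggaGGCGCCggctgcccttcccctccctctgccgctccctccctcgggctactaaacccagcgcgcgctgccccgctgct
Id2 (chr12:25096093-25096342, minus strand): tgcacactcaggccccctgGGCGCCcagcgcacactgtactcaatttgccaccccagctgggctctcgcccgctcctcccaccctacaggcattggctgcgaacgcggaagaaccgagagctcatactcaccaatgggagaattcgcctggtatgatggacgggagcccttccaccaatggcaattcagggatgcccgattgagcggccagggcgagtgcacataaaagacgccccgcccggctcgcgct
Id3 (chr4:136143572-136143821, plus strand): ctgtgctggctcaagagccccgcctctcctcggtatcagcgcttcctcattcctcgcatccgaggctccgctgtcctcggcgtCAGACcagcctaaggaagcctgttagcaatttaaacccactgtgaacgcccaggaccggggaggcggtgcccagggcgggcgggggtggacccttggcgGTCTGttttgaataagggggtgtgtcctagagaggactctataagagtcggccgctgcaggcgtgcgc
CAGAC occurred 1 time before *Gdf10*, 2 times before *Tgfbi*, 2 times before *Id3* and not in the *Id2* window, and GGCGCC occurred 1 time each before *Tgfbi* and *Id2*. No base lay in 2 matches. CAGAC is short enough to be common: 45.8% of the 27025 genes with a window held it, against 20 of the 38 members that have a window (52.6%). GGCGCC was found for 10 of those 38 members (26.3%) and for 10.8% of all genes. These counts describe letters in a window and not sites that were measured to be bound.

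The libraries held 18076805 to 19479887 reads assigned to genes, a range narrow enough that depth differs little between groups. *Prkaa1*, which encodes AMPKα1, had 37.6 to 39.2 CPM (reads scaled to library size by the trimmed mean of M values) in the controls and 32.6 to 40.6 in the *LysM-Cre; Ampkα1 fl/fl* libraries, so the whole-tissue, whole-gene count does not show the deletion. *Lyz2*, the locus that carries Cre, had 390 to 425 CPM in the controls and 0.432 to 0.811 CPM in the other group. As the controls carried no Cre, the Cre itself, the near absence of *Lyz2* transcripts and the *Ampkα1* deletion cannot be told apart. Markers of tendon cells were well expressed in every library, with a summed level of 9993 to 10095 CPM in the controls and 9923 to 10923 in the other group. Several other marker lists moved with the genotype, and their part in the results on the 54 genes was not tested. All 15 skeletal muscle markers were higher in *LysM-Cre; Ampkα1 fl/fl* tissue, with summed levels of 242, 737 and 4028 CPM in the controls and 4339, 1320 and 11756 CPM in the other group, the larger value being the latter within each same-numbered pair of libraries. The unadjusted p was under 0.05 for 0 of these 15 markers in edgeR without a block and for 15 of 15 with the replicate block, and the adjusted p was under 0.05 for 0 in either fit and in DESeq2. Over all 14261 genes tested, the unadjusted p was under 0.05 for 2071 without a block and for 2274 with it. All 6 bone markers were lower (11.4 to 22.4 CPM summed against 3.23 to 4.38), with *Ibsp* at 0 reads in a *LysM-Cre; Ampkα1 fl/fl* library. Lower levels were also found for 10 of 10 cell division markers (425 to 549 CPM against 266 to 378), 8 of 10 macrophage markers (1103 to 1153 CPM against 704 to 916), 7 of 7 tested erythroid markers (1998 to 2974 CPM against 676 to 983) and 6 of 8 smooth muscle and pericyte markers (1804 to 1839 CPM against 1537 to 1591). Of the 7 tested erythroid markers, 6 had an adjusted p under 0.05 in edgeR, 1 with the replicate block and 6 in DESeq2. The shares over all genes tested were 0.898%, 0.33% and 4.77%. Of 6 adipocyte markers, 5 were lower, at 188 to 320 CPM summed in the controls and 60.7 to 214 CPM in the other group. The cartilage markers were mixed, with 4 of 8 tested higher and 4 lower: *Acan* rose (log2 fold change 0.60, adjusted p = 0.0298, and 0.0634 with the replicate block), whereas control replicate 2 stood apart for *Col2a1*, with 38245 reads against 5020 and 6642 in the other controls and 4103 to 5225 in the *LysM-Cre; Ampkα1 fl/fl* libraries. *Matn1* and *Snorc* were near 0 reads in every library but that control. Y-linked *Ddx3y* was at 17.6 to 26.9 CPM in the controls and 36.8 to 56.2 CPM in the other group, so the sex makeup of the samples and the genotype cannot be told apart.

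Levels of different genes were compared in TPM, a unit that corrects for transcript length. The 54 genes spanned from under 1 TPM (4 genes) up to 2126 TPM, with 43 genes between 1 and 100 TPM and 7 above 100 TPM. *Fstl1*, a secreted glycoprotein related to follistatin, was the most abundant at a mean of 2126 TPM over the 6 libraries. It was followed by *Tgfbi*, a matrix protein that binds collagens and integrins, at 735 TPM. These 2 genes made up 55.4% ± 1.74 (SD, n = 3) of the summed TPM of the 54 genes in the controls and 53.2% ± 1.93 (SD, n = 3) in *LysM-Cre; Ampkα1 fl/fl* tissue. The next ranks were *Ltbp4* (263 TPM), *Tgfb3* (262 TPM) and *Ltbp3* (259 TPM), whose ranges over the libraries overlapped, and then *Tgfbr2* (208 TPM) and *Id3* (170 TPM). The 6 most abundant members thus included a TGF-β ligand, 2 of the 4 LTBP genes and the TGF-β type II receptor. No BMP ligand came near these levels: the 6 BMP ligand genes together summed to 41.3 ± 4.40 TPM in the controls, and *Gdf6*, *Gdf7*, *Gdf15* and *Smad9* lay under 1 TPM. The summed level of all 54 genes was 5318 ± 238 TPM in the controls and 5194 ± 557 TPM in the other group, and the libraries of the groups overlapped.

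**Figure D1:**
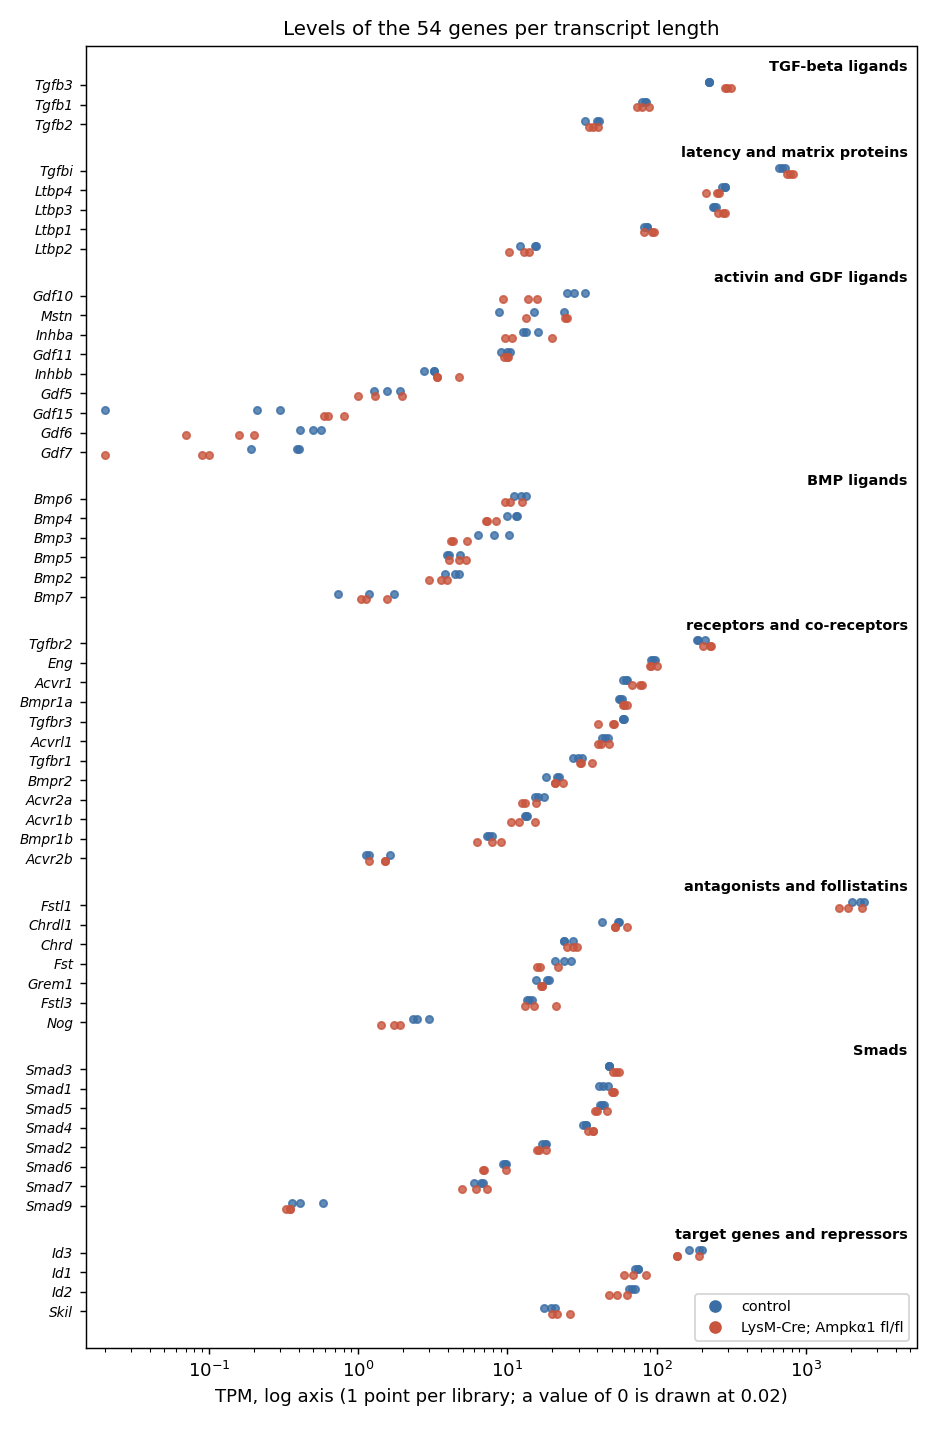
Level of each of the 54 genes in TPM (horizontal log axis) in every library, with blue points for the 3 controls and red points for the 3 *LysM-Cre; Ampkα1 fl/fl* libraries, grouped by role and ordered by mean level. *Fstl1* and *Tgfbi* lie far to the right, the TGF-β ligands lie above the BMP ligands, and *Tgfb3*, *Gdf10*, *Bmp3* and *Bmp4* are among the genes whose red and blue points separate.

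Of the 52 tested, 22 were higher and 30 lower in *LysM-Cre; Ampkα1 fl/fl* tissue, with a median log2 fold change of -0.04 beside -0.00 over all 14261 genes tested, and 47 of the 52 differed by less than 0.5 on the log2 scale, close to the proportion over all genes tested (12670 of 14261). A single member, *Tgfb3*, was called by the quasi-likelihood test of edgeR at 0.05 after Benjamini-Hochberg adjustment over all genes tested, beside 0.898% of all genes. At an unadjusted p under 0.05 there were 19 members (36.5%) beside 14.5% of all genes, of which 9 were higher (17.3%, beside 5.97%) and 10 lower (19.2%, beside 8.55%). The CPM ranges of the groups did not overlap in 20 of the 52 members (38.5%), beside 20.4% of all genes. With 3 libraries against 3, an exact permutation test of a single gene cannot go below p = 0.1. A fit blocked on replicate number also called 1 member, *Gdf10* instead of *Tgfb3*, beside 0.33% of all genes. DESeq2 called 6 members, *Tgfb3*, *Ltbp3*, *Acvr1*, *Gdf10*, *Bmp3* and *Tgfbr3*, the first 3 higher and the last 3 lower, beside 4.77% of all genes.

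**Figure D2:**
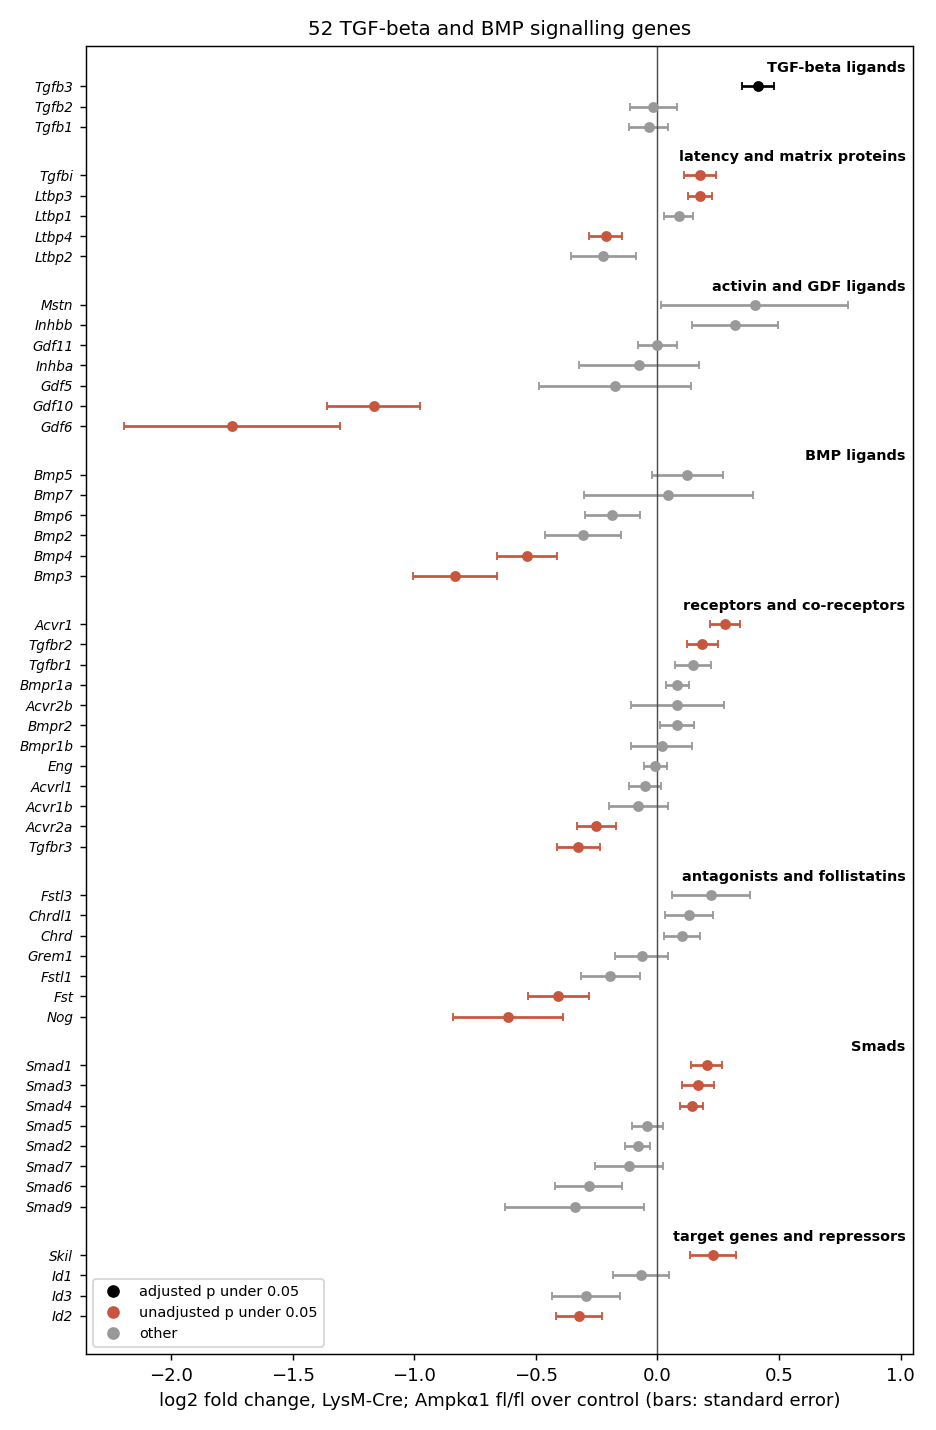
Log2 fold change of the 52 tested genes, *LysM-Cre; Ampkα1 fl/fl* over control, with bars for the standard error, grouped by role; black marks an adjusted p under 0.05, red an unadjusted p under 0.05, and grey the other genes. *Tgfb3* is the only black point at 0.41, and the lowest points are *Gdf6* at -1.75 and *Gdf10* at -1.17.

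Of the 3 TGF-β ligand genes, which encode related dimeric cytokines, *Tgfb3* rose and the others did not pass the test. *Tgfb3* (GRCm38.p6 chr12:86056743-86079041) had 338, 356 and 343 CPM in the controls and 488, 428 and 466 CPM in *LysM-Cre; Ampkα1 fl/fl* tissue. Every library of the latter group lay above every control, and the controls differed from each other by little. The log2 fold change was 0.41 ± 0.07 (SE), a 1.33-fold difference, with unadjusted p = 0.000409 and adjusted p = 0.0467 (edgeR). The adjusted p was 0.0953 with the replicate block and 0.131 after adjustment for the skeletal muscle score, and it lay between 0.115 and 0.217 when any library other than *LysM-Cre; Ampkα1 fl/fl* replicate 2 was left out, while the log2 fold change stayed between 0.37 and 0.47. *Tgfb1*, the ligand best known from platelets, macrophages and fibrosis, had 76.2, 80.8 and 73.4 CPM in the controls and 83.3, 71.4 and 69.9 CPM in the other group. *Tgfb2*, a ligand with known roles in heart, eye and tendon development, had 98.2, 99.1 and 79.6 CPM in the controls and 85.3, 94.8 and 93.4 CPM in the other group. The groups overlapped for both, with log2 fold changes of -0.04 ± 0.08 and -0.02 ± 0.10 (SE).

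*Tgfb3* was the main isoform by level in both groups, and its share of the ligand family was larger in *LysM-Cre; Ampkα1 fl/fl* tissue. *Tgfb3* provided 64.2%, 64.4% and 66.6% of the summed TPM of the 3 ligand genes in the controls and 71.7%, 70.6% and 72.7% in *LysM-Cre; Ampkα1 fl/fl* tissue. The share of *Tgfb1* was 23.9% ± 0.306 (SD, n = 3) in the controls and 19.3% ± 1.13 (SD, n = 3) in the other group. The shares of neither gene overlapped between groups. The 3 ligand genes together summed to 344 ± 5.87 TPM in the controls and 418 ± 18.8 TPM in *LysM-Cre; Ampkα1 fl/fl* tissue, again without overlap. These sums and shares use the values that put *Tgfb3* on the list of calls and are no further test of it.

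The latency and matrix genes went in both directions. *Ltbp3*, a binding protein that carries latent TGF-β, had 532, 533 and 525 CPM in the controls and 613, 601 and 580 CPM in the other group. *Ltbp4*, which carries latent TGF-β1 and takes part in elastic fibre assembly, had 661, 664 and 675 CPM in the controls and 605, 596 and 526 CPM in the other group. The groups did not overlap for either gene, but the directions were opposite: the log2 fold change was 0.17 ± 0.05 (SE) for *Ltbp3* (unadjusted p = 0.0111, adjusted p = 0.182) and -0.21 ± 0.07 for *Ltbp4* (unadjusted p = 0.0173, adjusted p = 0.216). *Tgfbi* had 814, 895 and 781 CPM in the controls and 949, 950 and 914 CPM in *LysM-Cre; Ampkα1 fl/fl* tissue. The lowest of the latter lay just above the highest control, with a log2 fold change of 0.18 ± 0.07 (unadjusted p = 0.0325, adjusted p = 0.286). *Ltbp2*, which binds fibrillin rather than TGF-β, had a log2 fold change of -0.22 ± 0.13 with overlapping groups (unadjusted p = 0.14), which was -0.01 after adjustment for the skeletal muscle score. With the replicate block its unadjusted p was 0.0166 and its adjusted p 0.194. *Ltbp1*, the founding member of the family, had 221 to 237 CPM in the controls and 229 to 253 CPM in the other group, which overlapped.

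Among the activin and GDF ligands, *Gdf10* gave the clearest difference. *Gdf10*, also called BMP3B, is a member of the superfamily related to *Bmp3* (GRCm38.p6 chr14:33923587-33936514). It had 47.1, 58.6 and 42.5 CPM in the controls and 23.6, 26.0 and 16.4 CPM in *LysM-Cre; Ampkα1 fl/fl* tissue. The highest of the latter lay well below the lowest control, and the log2 fold change was -1.17 ± 0.19 (SE), a 2.24-fold difference. Its adjusted p was 0.0526 in the unblocked edgeR fit, just outside the threshold, 0.0201 with the replicate block and 2.1e-07 in DESeq2. After adjustment for the skeletal muscle score the log2 fold change was -0.95, with an adjusted p of 0.0915 (edgeR). Over all settings used, the adjusted p of *Gdf10* reached 0.262 at most. *Gdf6*, a ligand of joint, tendon and skull development, had 15, 17 and 12 reads in the controls and 5, 2 and 6 reads in the other group. Its log2 fold change of -1.75 ± 0.44 (unadjusted p = 0.00581, adjusted p = 0.139) was the largest of the 52 in size and rested on few reads.

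*Gdf7*, known with *Gdf5* and *Gdf6* for joint and tendon formation, fell under the filter on low counts, with 4, 2 and 4 reads in the controls and 1, 1 and 0 reads in *LysM-Cre; Ampkα1 fl/fl* tissue. The ratio of its depth-scaled counts was 0.197, with an exact 95% interval of 0.021 to 0.926 for counting error only. *Gdf15*, a cytokine raised by cellular stress, had 0, 3 and 2 reads in the controls and 7, 6 and 8 reads in the other group, a ratio of 4.15 (1.52 to 14.1). The read counts of the groups did not overlap for either gene. *Gdf5* itself had 23 to 36 reads in the controls and 19 to 35 in the other group, so the difference seen for *Gdf6* was not seen for it at this depth.

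The remaining ligands of this class did not pass the test. *Mstn*, the muscle growth inhibitor myostatin, had 17.7, 10.9 and 28.4 CPM in the controls and 30.0, 15.4 and 29.8 CPM in *LysM-Cre; Ampkα1 fl/fl* tissue. The groups overlapped and libraries of each group spanned nearly the same range. Its log2 fold change of 0.40 ± 0.38 (SE) became -0.12 after adjustment for the skeletal muscle score, and the summed muscle markers ranged from 242 to 4028 CPM and from 1320 to 11756 CPM in the same groups. With the replicate block the log2 fold change of *Mstn* was 0.44 ± 0.15 (edgeR, unadjusted p = 0.0281, adjusted p = 0.24). *Inhbb*, the activin βB subunit, had 6.30, 5.57 and 6.36 CPM in the controls and 9.44, 6.44 and 6.86 CPM in the other group, separated only narrowly (log2 fold change 0.32 ± 0.18, unadjusted p = 0.114). *Inhba*, the activin βA subunit, overlapped widely, at 39.9 to 48.1 CPM and 29.6 to 58.3 CPM, and *Gdf11*, the closest relative of myostatin, had 24.9 to 28.4 CPM and 26.3 to 28.6 CPM.

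The BMP ligand genes had the lowest class median, -0.25 on the log2 scale, with 4 of 6 lower and 2 higher in *LysM-Cre; Ampkα1 fl/fl* tissue. *Bmp3*, which unlike most BMPs is known to oppose bone formation (GRCm38.p6 chr5:98854415-98884053), had 23.9, 19.3 and 30.2 CPM in the controls and 12.6, 15.4 and 13.2 CPM in the other group. All 3 of the latter lay below all controls, by a log2 fold change of -0.83 ± 0.17 (SE, unadjusted p = 0.00196, adjusted p = 0.0902). *Bmp4*, a ligand that induces bone and many embryonic tissues (GRCm38.p6 chr14:46383525-46390669), had 10.1, 8.96 and 9.81 CPM in the controls and 6.41, 6.06 and 7.40 CPM in the other group. The groups were again separate, by -0.54 ± 0.12 (unadjusted p = 0.00358, adjusted p = 0.116). The remaining 4 BMP ligands, *Bmp2*, *Bmp5*, *Bmp6* and *Bmp7*, overlapped between groups and had unadjusted p-values of 0.0938 to 0.902. The 6 genes together summed to 41.6, 36.8 and 45.6 TPM in the controls and 29.2, 35.1 and 33.3 TPM in the other group, which did not overlap. This sum includes *Bmp3* and *Bmp4*, so it is no further test of them and does not show a decrease of the whole class. The bone markers *Bglap*, *Ibsp*, *Sp7*, *Dmp1*, *Phex* and *Alpl* were all lower in the same libraries, at 11.4 to 22.4 CPM summed in the controls and 3.23 to 4.38 CPM in the other group, and their part in the *Bmp3* and *Bmp4* differences was not tested.

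**Figure D3:**
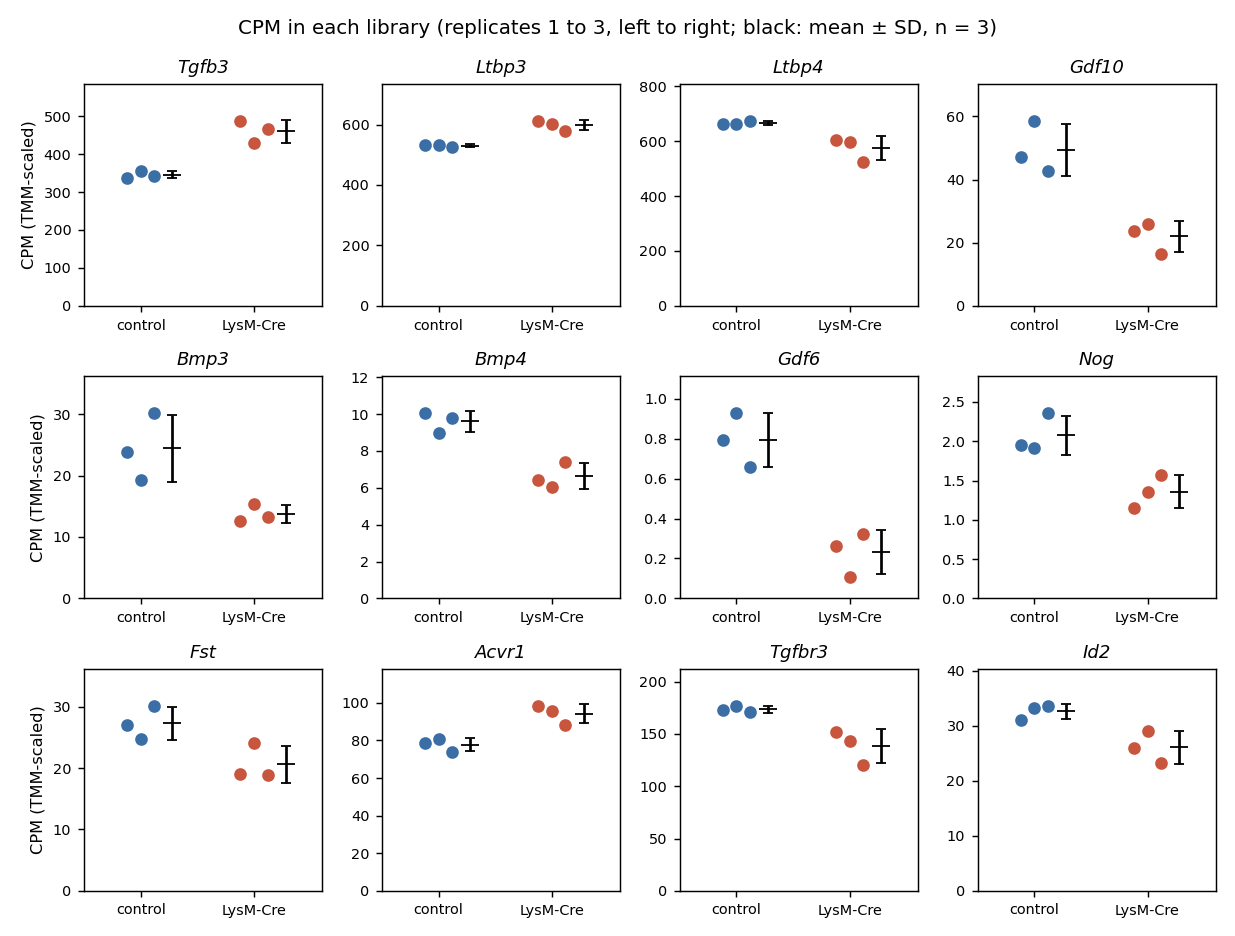
CPM (vertical axes from 0) of 12 genes in each library, controls in blue and *LysM-Cre; Ampkα1 fl/fl* in red, in replicate order from left to right, with the mean and SD of 3 libraries in black. *Tgfb3*, *Ltbp3* and *Acvr1* are higher in all 3 *LysM-Cre; Ampkα1 fl/fl* libraries, and the other 9 genes are lower in all 3.

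The 12 receptor genes had a median log2 fold change of 0.05 and ranged from -0.33 to 0.28, with 7 higher and 5 lower, and the groups did not overlap in 5 of them (41.7%, beside 20.4% of all genes). *Acvr1* (ALK2), a type I receptor for BMPs and activins, had 78.5, 80.8 and 74.1 CPM in the controls and 98.5, 95.9 and 88.5 CPM in *LysM-Cre; Ampkα1 fl/fl* tissue. The groups were separate, at a log2 fold change of 0.28 ± 0.06 (SE, unadjusted p = 0.00312, adjusted p = 0.11). *Tgfbr2*, the type II receptor for TGF-β and the most abundant of the receptor genes, had 458, 426 and 414 CPM in the controls and 509, 499 and 467 CPM in the other group, a log2 fold change of 0.18 ± 0.06 (unadjusted p = 0.0243, adjusted p = 0.25). *Tgfbr3* (betaglycan), a co-receptor that presents TGF-β2 and binds inhibin, went the other way. It had 172, 177 and 171 CPM in the controls and 152, 143 and 120 CPM in the other group, a log2 fold change of -0.33 ± 0.09 (unadjusted p = 0.00788, adjusted p = 0.158). *Acvr2a*, a type II receptor for activins, had 42.1, 42.6 and 46.8 CPM in the controls and 35.5, 40.2 and 34.8 CPM in the other group, a log2 fold change of -0.25 ± 0.08 (unadjusted p = 0.0167, adjusted p = 0.212). *Bmpr1a* (ALK3) separated by a small margin, at 147 to 153 CPM against 158 to 159 CPM, with a log2 fold change of 0.08 ± 0.05 (unadjusted p = 0.12).

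*Eng* (endoglin) and *Acvrl1* (ALK1), the receptors that BMP9 and BMP10 use on endothelium, gave no detectable difference, with log2 fold changes of -0.01 ± 0.05 and -0.05 ± 0.07 (SE). *Eng* had 149, 147 and 146 CPM in the controls and 143, 152 and 146 CPM in *LysM-Cre; Ampkα1 fl/fl* tissue. Endothelial markers were lower for 8 of 9 genes in the same libraries, with summed levels of 858 to 928 CPM in the controls and 793 to 822 CPM in the other group. The type I receptors *Tgfbr1* (ALK5), *Acvr1b* (ALK4) and *Bmpr1b* (ALK6) and the type II receptors *Bmpr2* and *Acvr2b* overlapped between groups, with unadjusted p-values of 0.0851 to 0.894.

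Of the 7 secreted antagonists, 0 were called by edgeR or by DESeq2, beside 0.898% and 4.77% of all genes. An unadjusted p under 0.05 in edgeR without a block was found for 2 of them (28.6%, beside 14.5% of all genes). *Fst* (follistatin), which binds and neutralises activins, had 27.0, 24.8 and 30.2 CPM in the controls and 19.0, 24.0 and 18.8 CPM in *LysM-Cre; Ampkα1 fl/fl* tissue. *LysM-Cre; Ampkα1 fl/fl* replicate 2 came close to the lowest control, and the log2 fold change was -0.41 ± 0.12 (SE, unadjusted p = 0.014, adjusted p = 0.197). *Nog* (noggin), which sequesters BMPs, had 37, 35 and 43 reads in the controls and 22, 25 and 29 reads in the other group. The groups were separate, at a log2 fold change of -0.61 ± 0.23 (unadjusted p = 0.0308, adjusted p = 0.279). Transcripts of the ligands *Bmp3* and *Bmp4* and of the antagonist *Nog* were thus lower in the same libraries. *Fstl1*, the most abundant of the 54 genes, had 3955, 3915 and 3351 CPM in the controls and 3188, 3804 and 2829 CPM in the other group. The groups overlapped, and its log2 fold change of -0.19 ± 0.12 (unadjusted p = 0.154) was -0.00 after adjustment for the skeletal muscle score. With the replicate block the unadjusted p of *Fstl1* was 0.0376 and its adjusted p 0.274 (edgeR). *Chrd* (chordin) and *Chrdl1* (chordin-like 1), *Grem1* (gremlin 1), all BMP antagonists, and *Fstl3*, an activin-binding follistatin relative, overlapped between groups, with unadjusted p-values of 0.208 to 0.569.

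The Smad genes, which encode the transducers themselves, differed by at most 0.34 on the log2 scale. *Smad1*, a mediator of BMP signals, had 62.4, 61.1 and 55.2 CPM in the controls and 67.7, 67.4 and 70.4 CPM in *LysM-Cre; Ampkα1 fl/fl* tissue. *Smad3*, a mediator of TGF-β and activin signals, had 107, 109 and 107 CPM in the controls and 129, 111 and 123 CPM in the other group. *Smad4*, the partner shared by both branches, had 121, 121 and 122 CPM in the controls and 138, 133 and 130 CPM in the other group. For these 3 genes every *LysM-Cre; Ampkα1 fl/fl* library lay above every control, at log2 fold changes of 0.20 ± 0.06 (SE, unadjusted p = 0.0142), 0.17 ± 0.07 (unadjusted p = 0.0409) and 0.14 ± 0.05 (unadjusted p = 0.0208), and adjusted p-values of 0.198, 0.313 and 0.232. Their partners *Smad2* and *Smad5* overlapped between groups, at 74.3 to 75.8 against 68.8 to 74.7 CPM and at 133 to 136 against 125 to 141 CPM. *Smad6*, the inhibitory Smad of the BMP branch and itself a BMP target, had 12.2, 13.1 and 12.4 CPM in the controls and 9.33, 12.4 and 9.19 CPM in the other group, so that replicate 2 stood apart from replicates 1 and 3 and reached the control range (log2 fold change -0.28 ± 0.14, unadjusted p = 0.0795, and -0.175 after adjustment for the skeletal muscle score). *Smad7*, the inhibitor induced by TGF-β, overlapped at 12.1 to 13.0 against 9.44 to 13.4 CPM. *Smad9* had 16 to 28 reads in every library and a log2 fold change of -0.34 ± 0.28 (unadjusted p = 0.27).

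The 3 *Id* genes, which encode inhibitors of basic helix-loop-helix transcription factors and are direct targets of BMP signals, were lower on average without passing the adjusted test. *Id2* had 31.1, 33.2 and 33.7 CPM in the controls and 26.0, 29.1 and 23.2 CPM in *LysM-Cre; Ampkα1 fl/fl* tissue, a log2 fold change of -0.32 ± 0.10 (SE, unadjusted p = 0.0116, adjusted p = 0.185) with separate groups. *Id3* had 60.7, 65.1 and 51.3 CPM in the controls and 43.1, 57.7 and 43.8 CPM in the other group. *Id1* had 22.4, 23.8 and 23.0 CPM in the controls and 18.7, 25.2 and 22.1 CPM in the other group. The groups overlapped for both, because *LysM-Cre; Ampkα1 fl/fl* replicate 2 lay above the lowest control, and the log2 fold changes were -0.29 ± 0.14 (unadjusted p = 0.0732) and -0.07 ± 0.11 (unadjusted p = 0.573). For *Id3* the log2 fold change was -0.10 after adjustment for the skeletal muscle score, and with the replicate block the unadjusted p was 0.0142 and the adjusted p 0.178. The sign for *Id1* turned when *LysM-Cre; Ampkα1 fl/fl* replicate 1 was left out (0.04). *Skil* (SnoN), a repressor of Smad complexes that TGF-β induces, had 59.3, 55.7 and 63.4 CPM in the controls and 63.0, 78.7 and 67.5 CPM in the other group. The lowest *LysM-Cre; Ampkα1 fl/fl* value fell just within the control range, at a log2 fold change of 0.23 ± 0.10 (unadjusted p = 0.0463, adjusted p = 0.33).

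Beyond the 54 genes, 101 further genes of the pathway were listed by role, of which 97 were in the table and 84 were tested. A single gene, *Dcn*, passed an adjusted p under 0.05, beside 0.898% of all genes. An unadjusted p under 0.05 was found for 23, 9 higher and 14 lower (10.7% and 16.7%, beside 5.97% and 8.55% of all genes). *Dcn* (decorin), a small proteoglycan of collagen fibrils that also binds TGF-β, had 2927, 3175 and 2951 CPM in the controls and 2247, 2264 and 2099 CPM in *LysM-Cre; Ampkα1 fl/fl* tissue. Its log2 fold change was -0.45 ± 0.06 (SE), with an adjusted p of 0.0301, and of 0.0611 with the replicate block. Among the matrix carriers and activators, *Bgn* (biglycan, a relative of decorin) was higher at 0.27 ± 0.07 (unadjusted p = 0.00461) and *Fbn1* (fibrillin 1, to which LTBPs bind) was lower at -0.34 ± 0.11 (unadjusted p = 0.0152). *Itgb5*, an integrin subunit of a receptor that can activate latent TGF-β, was higher at 0.34 ± 0.08 (unadjusted p = 0.00419).

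Among the further receptors and antagonists, *Bambi*, a pseudoreceptor that dampens TGF-β and BMP signals, was lower at -0.41 ± 0.09 (unadjusted p = 0.00274, adjusted p = 0.104). *Nrp1*, on the same list of receptors and co-receptors, was also lower at -0.32 ± 0.06 (unadjusted p = 0.00176, adjusted p = 0.0869). *Bmper*, a secreted BMP modulator, was lower at -0.79 ± 0.13 (unadjusted p = 0.000576, adjusted p = 0.0547), and *Nbl1*, a relative of gremlin, was higher at 0.35 ± 0.10 (unadjusted p = 0.0108). Of the intracellular regulators, 4 of 23 (17.4%) had an unadjusted p under 0.05, close to the 14.5% of all genes tested. The lowest p of these was that of *Wwp1*, a ubiquitin ligase, at -0.27 ± 0.07. The response genes did not move one way. *Acta2* (smooth muscle actin), *Id4*, *Msx1*, *Msx2* and *Col3a1* were lower, and *Fn1* (fibronectin), *Pmepa1* (an inhibitor induced by TGF-β) and *Sox9* (a cartilage and tendon progenitor factor) were higher, all at an unadjusted p under 0.05. *Id4* had 23.4, 22.8 and 20.0 CPM in the controls and 9.39, 13.5 and 4.32 CPM in the other group, a log2 fold change of -1.28 ± 0.36 (unadjusted p = 0.00888, adjusted p = 0.166). *Msx2*, a BMP-responsive homeobox gene of skull and limb, had a log2 fold change of -1.06 ± 0.28 (unadjusted p = 0.00646, adjusted p = 0.143). *Fn1* had a log2 fold change of 0.41 ± 0.10 and *Acta2* of -0.56 ± 0.13, and *Acta2* is also on the list of smooth muscle and pericyte markers, of which 6 of 8 were lower.

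The deposited table splits genes into RefSeq transcripts, and 22 members had more than 1 transcript over 1 TPM. Of 123 member transcripts tested in edgeR, 0 had an adjusted p under 0.05 and 18 (14.6%) an unadjusted p under 0.05, beside 1 and 6.11% of the 35819 transcripts tested in all. *Tgfbr2* had a pair of transcripts. The more abundant had 119, 104 and 104 TPM in the controls and 148, 125 and 139 TPM in *LysM-Cre; Ampkα1 fl/fl* tissue, without overlap. The other had 90.9, 82.3 and 84.0 TPM in the controls and 79.8, 107 and 66.1 TPM in the other group, with wide overlap. In *Ltbp3*, which had 7 transcripts over this level, the one with the highest mean share took 25.4% to 27.0% of the gene's TPM in the controls and 28.2% to 29.1% in the other group. It was 1 of 4 transcripts, of 70 described, whose shares did not overlap between groups. Reads shared by transcripts were divided by estimation, so these shares carry more error than the gene sums.

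The 19 members with an unadjusted p under 0.05 kept their direction in all 265 recomputed values. These covered other scalings, filters, DESeq2, the replicate block, the muscle score, the most abundant transcript of each gene and the removal of each library. A less abundant transcript of each of *Tgfbr2*, *Ltbp3* and *Smad3* had the opposite sign to its gene. The 19 were picked by p in these same libraries, and the groups overlapped only for *Skil*. Leaving out 1 library could thus hardly turn a sign, and the count is no further test of them. For *Gdf10* the log2 fold change ran from -1.30 to -0.99 with 1 library left out, and for *Bmp3* from -0.98 to -0.65. Members with differences near 0, such as *Tgfb1*, *Tgfb2*, *Eng* and *Id1*, changed sign under some settings.

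**Figure D4:**
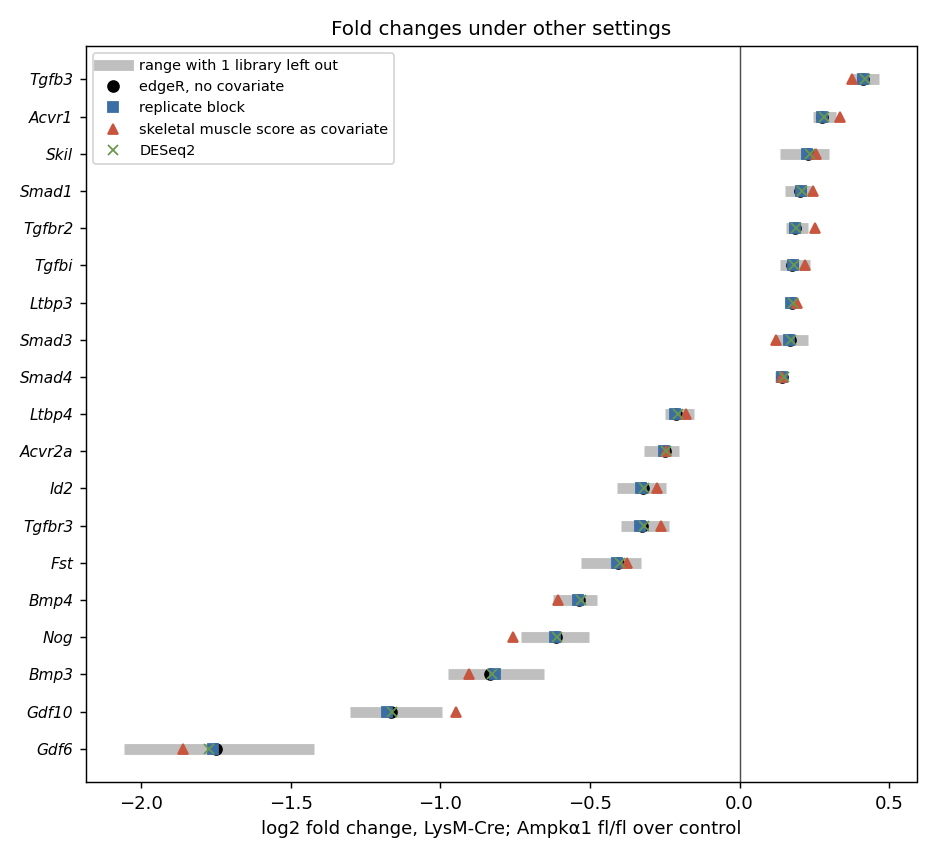
Log2 fold change, *LysM-Cre; Ampkα1 fl/fl* over control, of the 19 genes with an unadjusted p under 0.05: black circles for edgeR without covariates, blue squares with the replicate block, red triangles with the skeletal muscle score, green crosses for DESeq2, and grey bars for the range when 1 library is left out. No symbol or bar crosses 0, and the bars are widest for *Gdf6*, *Bmp3* and *Gdf10*.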

How the data were processed

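Total RNA of 6 injured tendons, 3 mice per genotype, was sequenced on a BGISEQ platform by the authors. Groups and replicate numbers come from the sample labels. The deposited table lists 65053 RefSeq transcripts (GRCm38.p6, per the labels) with estimated counts per library, which the authors had made from their reads and not normalised. It also gives deposited TPM values, scaled by the authors for length and depth. The aligner and counter are not given in the sources used here. Averages, FPKM and normalised counts of the authors (20 columns) were not used.

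Estimated counts and TPM were summed over the transcripts of each NCBI gene, and counts were rounded, giving 18099 genes, of which 18049 (99.72%) matched a name in the RefSeq table. Counts were fitted with edgeR 4.0.16 (R 4.3.3; TMM, filterByExpr, glmQLFit, glmQLFTest) over all 6 libraries, and p-values were adjusted over the 14261 genes that passed the filter. SE came from the estimate and its F statistic. The p-values measure the spread between 3 libraries per group, and 18076805 to 19479887 reads per library limit what can be seen for genes with few reads. Intervals of 95% for low counts are exact conditional binomial intervals and cover counting error only. The fit was tested on simulated data.

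Same-numbered libraries had correlated deviations from their group means (0.184, 0.118 and 0.31 over genes), so the replicate number was added as a block in an alternative. Differently numbered libraries ranged from -0.55 to 0.501, and no label says what the numbers share. The other alternatives were DESeq2 1.42.0, upper-quartile and RLE scaling, other filters, a skeletal muscle score (mean log2 CPM of 15 muscle genes) as covariate, single transcripts, each library left out, and, chosen after seeing the data, total-count scaling and deposited TPM for the count of genes without overlap.

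The 54 genes, the lists of related and marker genes and the tests were chosen with earlier results of these data known. Full values are given for members with an unadjusted p under 0.05 or without overlap, for the 3 of highest TPM, for the largest difference in each class, and for a few others picked for their role. Related genes are named from the first 5 by p in each list with an unadjusted p under 0.05, and *Pmepa1*, *Id4* and *Msx1* were added after their values were seen. RefSeq windows (GRCm38.p6) were found for 38 of the 54 genes.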

Additional observations from a re-analysis of the deposited data

How the results depend on the processing

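The count of called members, 1 of 52, was 0 with upper-quartile scaling, with the skeletal muscle score and with single transcripts, 2 without the filter and with at least 10 reads in every library, 6 in DESeq2, and 0 to 2 with 1 library left out (2 without LysM-Cre replicate 2, otherwise 0). With the replicate block it was again 1, but *Gdf10* in place of *Tgfb3*. For *Tgfb3* the log2 fold change was 0.404 with upper-quartile scaling (adjusted p = 0.0539), 0.413 with the replicate block (0.0953), 0.375 with the muscle score (0.131), 0.411 in its single transcript (0.2), and 0.371 to 0.465 with 1 library left out. Its call was lost without control replicate 1, 2 or 3 or LysM-Cre replicate 1 or 3. *Gdf10* was called in DESeq2 (-1.161), without the filter (-1.165), with at least 10 reads (-1.168), with the replicate block (-1.178) and without LysM-Cre replicate 2, and ran from -1.303 to -0.994 over the libraries left out. The count of called related genes, 1 of 84, was 16 in DESeq2, 2 with at least 10 reads, 0 with the replicate block, and 0 to 3 with 1 library left out (3 without LysM-Cre replicate 2, otherwise 0). The call of the cartilage marker *Acan* was also lost with the replicate block, and the count of called erythroid markers went from 6 to 1. The block changed no other call named in the text.

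Class medians moved with the muscle score for the TGF-β ligands (0.101), the activin and GDF ligands (0.039) and the Smads (-0.014). With 1 library left out, the medians of the latter classes ran from -0.432 to 0.023 and from -0.110 to -0.002, the ends being without LysM-Cre replicates 2 and 1. The sign turned with the muscle score for *Tgfb2* (0.101), *Mstn* (-0.116), *Acvrl1* (0.036), *Eng* (0.017), *Inhba* (0.194), *Gdf5* (0.161), *Bmp7* (-0.313), *Acvr1b* (0.043), *Acvr2b* (-0.208) and *Smad5* (0.015). It also turned for *Gdf11* (0.039), whose value without the score was -0.000. Among the members given in full, the sign turned with some library left out for *Tgfb1* (-0.120 to 0.010), *Tgfb2* (-0.113 to 0.037), *Eng* (-0.031 to 0.012) and *Id1* (-0.176 to 0.037). Over all 52 members, 682 of 727 recomputed values kept their direction, and the 45 that did not came from 17 members, none with a difference over 0.400. The causes were not tested. Depth limits *Gdf6*, *Gdf7*, *Gdf15*, *Gdf5*, *Nog* and *Smad9*, which had few reads per library.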
